A study of Caenorhabditis elegans with 4 samples.

Results

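The 10 genes described here encode cohesin, the ring complex that holds sister chromatids together, and the complex that loads it. They are the loader genes scc-2 and mau-2, the shared subunit genes him-1 (an SMC1 protein), smc-3 and scc-3, the somatic kleisin genes scc-1 and coh-1, and the meiotic kleisin genes rec-8, coh-3 and coh-4. They are 10 of the 19985 protein-coding genes in the annotation. The complex was chosen by the score, rank and replicate agreement of LIN-15B peaks at its genes in these same lists, and all of the listed genes were kept whether or not they had a peak. Every LIN-15B peak with its summit inside a gene or within 1000 bp of it was taken.

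LIN-15B was mapped by chromatin immunoprecipitation followed by sequencing in whole Caenorhabditis elegans L4 larvae, in 1 group of 4 samples. The strain was OP184, with the alleles unc-119(tm4063) and wgIs184, and the larvae were pooled males and females of unknown age. The labels describe an insertion that targets lin-15B, an eGFP fusion and, for replicate 3, a C-terminal GFP-FLAG tag. The sources used here state neither the promoter of the transgene nor whether the strain's own lin-15B copy is intact. There were 3 biological replicates, and replicate 3 consisted of 2 technical libraries that share 1 peak list. Worms of replicates 1 and 2 came from the CGC and those of replicate 3 from the Snyder laboratory, and sonication is named for replicate 3 only. No second condition and no untagged strain were analysed here.

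Cohesin is built from a pair of SMC proteins, a kleisin that closes the ring and the SCC-3 protein that sits on the kleisin. SCC-2 and MAU-2 (the NIPBL and MAU2 proteins of vertebrates) load the ring onto chromatin, and the choice of kleisin sets whether the complex serves somatic cells or meiosis. LIN-15B carries a THAP DNA-binding domain and belongs to the synMuv B proteins, known for keeping germline genes silent in somatic tissue.

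The peak at scc-2 was among the highest of the study, and it sat directly upstream of one annotated scc-2 start. The peak at scc-1 also passed the authors' reproducibility threshold, but it lay beyond the 3′ end of scc-1 and upstream of the next gene, unc-85, which encodes an ASF1 histone chaperone. The other 8 genes had no peak among the 383 highest-scoring of any list. The sequences below run from 100 bases before to 100 bases after the summits at scc-2, scc-1 and smc-3. These are the 3 genes with the highest-ranked peaks among the 10 in the list called on the pooled replicates. They are from the WBcel235 assembly, which is ce11, and were read on the strand of the named gene: scc-2 from chrII:255244-255444 (minus strand), scc-1 from chrII:4701485-4701685 (plus strand) and smc-3 from chrIII:11290662-11290862 (plus strand). Capitals mark matches on either strand to CGCG or to the hexamers TTTGAA and TTCGAA. The hexamers are spellings of the cell cycle genes homology region (CHR), an element bound by the DREAM complex in other animals.
scc-2: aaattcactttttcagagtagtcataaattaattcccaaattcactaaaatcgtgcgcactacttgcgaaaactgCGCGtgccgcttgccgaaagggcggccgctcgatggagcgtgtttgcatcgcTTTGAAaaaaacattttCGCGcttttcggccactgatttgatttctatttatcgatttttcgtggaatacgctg
scc-1: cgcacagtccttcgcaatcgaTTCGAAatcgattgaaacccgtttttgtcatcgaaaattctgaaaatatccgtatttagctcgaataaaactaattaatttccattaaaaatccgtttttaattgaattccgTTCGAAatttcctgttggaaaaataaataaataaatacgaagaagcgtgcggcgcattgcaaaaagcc
smc-3: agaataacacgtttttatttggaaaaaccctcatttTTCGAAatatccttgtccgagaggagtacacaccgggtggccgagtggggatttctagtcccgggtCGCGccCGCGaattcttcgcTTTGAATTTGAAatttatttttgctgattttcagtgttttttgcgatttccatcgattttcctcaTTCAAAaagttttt

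The scc-2 window held CGCG in 2 places, 23.5 bp before and 45.5 bp after the summit, and TTTGAA once, 29.5 bp after it. The scc-1 window held TTCGAA in 2 places, 76.5 bp before and 35.5 bp after the summit. The smc-3 window held CGCG in 2 places, within 9.5 bp of the summit, together with TTCGAA once and TTTGAA in 3 places, counting both strands. CGCG was present in 66.6% of the 365 nuclear optimal windows and in 20.7% of the 8253 other nuclear pooled windows. TTTGAA was present in 46.8% and 46.9% of the same windows, and TTCGAA in 17.5% and 12.1%. CGCG thus differed most between the kinds of window, and TTTGAA was present in nearly the same share of both. The E2F elements TTCCCGC and GGCGGGA, the E-box CACGTG and the GATA element TGATAA had no match in these 3 windows. They were present in 3.84%, 3.56%, 4.38% and 12.3% of the nuclear optimal windows, and in 2.33%, 1.43%, 3.66% and 18.5% of the other nuclear pooled windows. A second, lower pooled peak near scc-1, at rank 390, is not shown above, and its window held TTCCCGC and CGCG.

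The windows of the peaks at scc-2 and scc-1 were rich in CG dinucleotides. The scc-2 window held 18 of them and the scc-1 window 16, against a median of 12.0 in nuclear optimal windows (quartiles 9.0 and 15.0) and 6.0 in the other nuclear pooled windows (4.0 and 9.0). The lower scc-1 peak had 17 and the smc-3 peak 13. G+C content did not follow the same order: it was 43.3% at scc-2, 40.3% at smc-3 and 34.3% at scc-1, where the nuclear optimal median was 41.8% and that of the other pooled windows 35.8%. The remaining 6 member peaks of the pooled list had 4 to 14 CG dinucleotides. The 14 were at coh-4, the lowest-ranked of them at 8141, so the number did not simply follow rank.

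**Figure D1:**
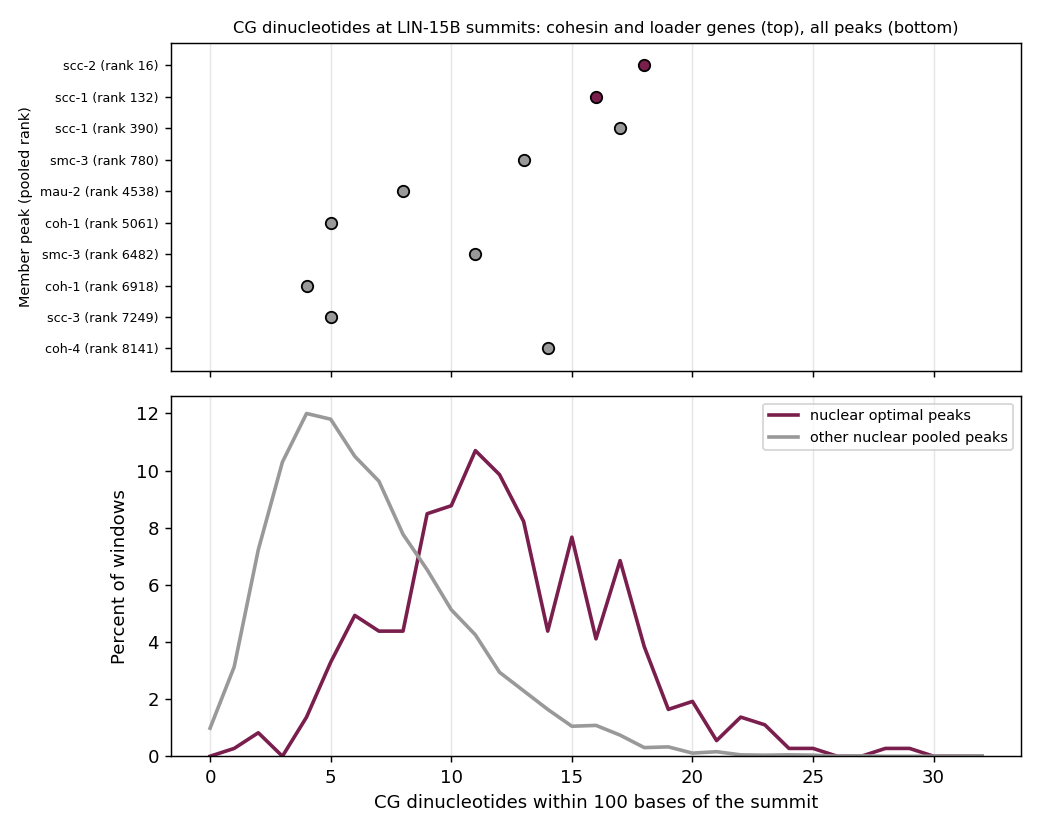
CG dinucleotides within 100 bases of each summit. The upper panel gives each pooled peak at a cohesin or loader gene, ordered by pooled rank, with optimal peaks in dark red and other pooled peaks in grey; the lower panel gives the percent of nuclear windows at each number of CG dinucleotides, in the same colours. The scc-2 peak (18) and both scc-1 peaks (16 and 17) lie right of the optimal median of 12.0, and the coh-1 and scc-3 peaks (4 and 5) lie left of the other pooled median of 6.0.

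The lists report a score for each peak, the authors' own signal value, which has no stated unit and was used only to rank peaks within a list. The optimal list, made of the peaks that passed the reproducibility threshold, held 383 peaks, and these were the highest-scoring of the 8636 peaks called on the pooled replicates. Each replicate list held 30000 peaks, which include background by design, so that a low-ranked peak is common near any gene. Of the optimal peaks, 18 were mitochondrial, and the replicate lists held 20, 0 and 29 mitochondrial peaks in replicates 1, 2 and 3. No read counts are given, so the depth of each sample is unknown.

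Optimal peaks were found at 2 of the 10 genes, scc-2 and scc-1, where 3.13% of all protein-coding genes had one by the same rule. Pooled peaks were found at 7 genes (scc-2, mau-2, smc-3, scc-3, scc-1, coh-1 and coh-4), against 37.5% of all genes. In the replicate 1 list 9 genes had a peak, all but coh-4, against 75.0% of all genes. In the replicate 2 list 9 genes had one, all but rec-8, against 76.2%, and in the replicate 3 list 8 genes had one, all but coh-3 and coh-4, against 73.9%. A peak in all 3 replicate lists was present at 7 genes, which were both loader genes, the 3 shared subunits and both somatic kleisins, against 50.6% of all genes. The 10 genes were chosen with these peak lists in view and are longer than most, with a median length of 4984 bp against 2026 bp for all protein-coding genes, so these counts are descriptions only.

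Peak number per length was close to that of other genes. The 10 genes with their flanks held 30, 29 and 34 replicate peaks, or 0.308, 0.298 and 0.350 peaks per kb in replicates 1, 2 and 3 (mean 0.319 ± 0.0276, SD, n = 3). All protein-coding genes held 0.318, 0.318 and 0.334 peaks per kb (mean 0.323 ± 0.00924, SD, n = 3). Among the 10 genes scc-1 had the most peaks per length, 0.936 ± 0.234 replicate peaks per kb (SD, n = 3), and the other 9 had from 0.0863 at coh-4 to 0.494 at rec-8, with 0.321 at scc-2. A top-ranked peak, meaning one among the 383 highest-scoring of its list, was present in all 3 replicates at scc-2 and scc-1, 2 of the 10 genes, against 1.23% of all protein-coding genes.

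**Figure D2:**
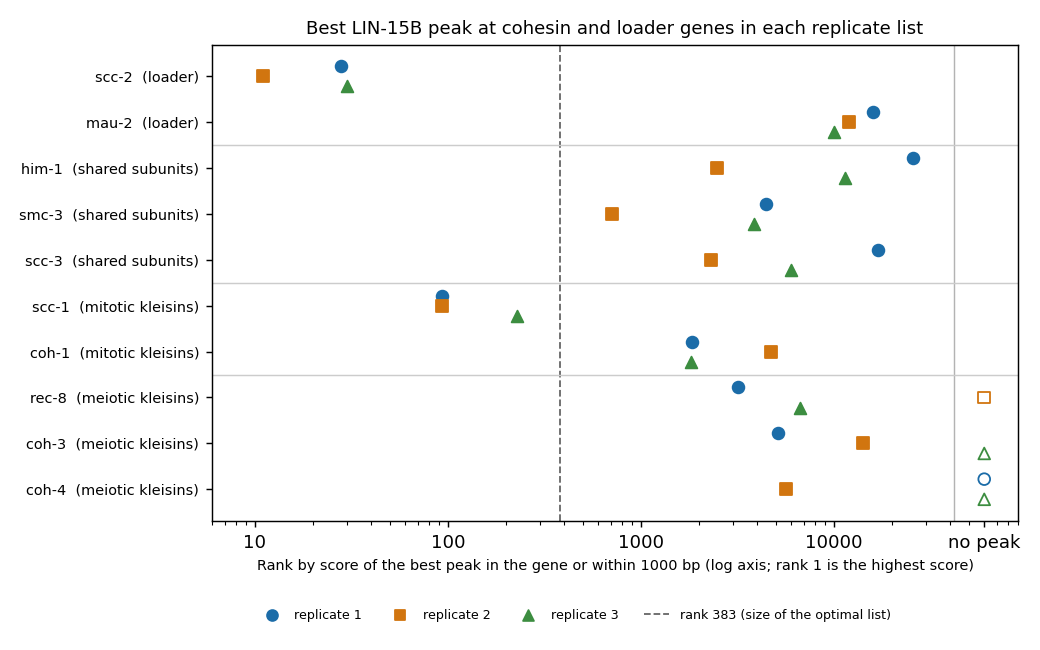
Rank of the best peak at each cohesin or loader gene in the 3 replicate lists, on a log axis where rank 1 is the highest score; circles, squares and triangles are replicates 1, 2 and 3, open symbols mark genes with no peak in that list, and the dashed line is rank 383. All 3 replicates of scc-2 (11 to 30) and of scc-1 (93 to 227) lie left of the line, and no other gene has a replicate there.

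The loader gene scc-2 (WBGene00004166, chromosome II, 240705 to 263663, minus strand) encodes the large subunit of the loader. Its best peak had scores of 36.3, 54.4 and 49.7 in replicates 1, 2 and 3, which placed it at ranks 28, 11 and 30 of 30000. All 3 ranks fell within the first 30 of their lists, with a mean of 23.0 ± 10.4 (SD, n = 3). In the optimal and pooled lists the peak spanned chromosome II, 255291 to 255415, with a score of 143.4 and rank 16. Of the 365 nuclear optimal peaks 11 scored higher, and of the 66 on chromosome II 2 did. The −log10 q-value the authors give for it was 1.49.

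The scc-2 peak was narrow in the optimal list, and its position was nearly the same in every replicate. The replicate summits stood at 255355, 255343 and 255350, a span of 12 bp around the pooled summit at 255344. Among protein-coding genes with an optimal peak and a peak in all 3 lists (n = 611), the median span between the best replicate summits was 63.0 bp (quartiles 33.0 and 140.5). Among genes with no optimal peak (n = 9499) it was 2256.0 bp (quartiles 1201.5 and 3847.5). At 125 bp, the scc-2 peak was 1 of 9 optimal peaks of that width or less, whereas 354 of the 383 were 340 bp wide. Its width was 376, 350 and 119 bp in replicates 1, 2 and 3, so of the replicate lists only that of replicate 3 had it narrow.

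The summit fell between the annotated starts of scc-2. It lay 148 bp upstream of the start of transcript Y43H11AL.3a.1 at 255196. In the longer transcript Y43H11AL.3a.2, which starts at 263663, the same position is 8319 bp downstream of the start and inside a first intron of 8369 bp. Both transcripts have the same annotated first coding base at 255182, so the peak precedes the coding sequence in either. A short transcript, Y43H11AL.3b.1, starts at 243874, 11470 bp from the summit. The intron also contains cat-2, the tyrosine hydroxylase gene of dopamine synthesis, on the opposite strand with starts 2475, 2553 and 3053 bp from the summit. Of the 10 genes, scc-2 was the 1 gene with an optimal peak in the promoter window, from 500 bp upstream to 100 bp downstream of any transcript start, against 1.98% of all protein-coding genes.

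No other peak at scc-2 came near this one. Replicates 1, 2 and 3 listed 6, 4 and 11 further peaks in or near the gene, all with ranks between 7765 and 29778. The best of them scored 4.30, 5.64 and 4.68 in the 3 replicates. The 4 that lay in cat-2 or just upstream of it had ranks from 14277 to 25674.

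The protein-coding genes most like scc-2 in replicate rank were F25H2.4, F25H2.6 and ndk-1, which share 1 optimal peak. Likeness was the distance between log10 ranks over the 3 replicate lists, among 610 genes with an optimal peak. That peak ranked 24, 15 and 31 in replicates 1, 2 and 3, a distance of 0.151, and 17 in the optimal list with a score of 134.7. It lay 42 bp upstream of ndk-1, which encodes a nucleoside diphosphate kinase.

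The other loader gene, mau-2 (WBGene00003136, chromosome I, 8125801 to 8130039, plus strand), encodes the partner that stabilises SCC-2. Its best peaks ranked 15894, 11979 and 9990 in replicates 1, 2 and 3, with scores of 3.61, 5.77 and 4.22 (mean rank 12621.0 ± 3003.9, SD, n = 3). None of these ranks comes near those of scc-2, and the best summits were spread over 3289 bp. In the pooled list mau-2 had 1 peak, at rank 4538 with a score of 13.4, inside a coding exon 1600 bp downstream of the start. The nearest optimal summit outside the window lay 3722 bp from the gene, at rank 331, 354 bp upstream of T28B8.1.

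Among the shared subunits smc-3 had the highest ranks. The gene smc-3 (WBGene00004873, chromosome III, 11290904 to 11306247, plus strand) encodes 1 of the 2 SMC proteins of the ring. Its best peaks scored 5.72, 11.3 and 5.96 in replicates 1, 2 and 3, at ranks 4442, 710 and 3845 (mean 2999.0 ± 2004.7, SD, n = 3). Only replicate 2 placed it within its first 1000 peaks.

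The higher pooled peak at smc-3 lay between divergent genes. It spanned chromosome III, 11290592 to 11290931, with its summit at 11290762, a score of 21.2 and rank 780, below the optimal list. The summit was 142 bp upstream of smc-3 and 86 bp upstream of mib-1, a gene named for the Mind bomb ubiquitin ligase, which runs the other way. It was also 182 bp upstream of a start of gly-9, which runs in the same direction as mib-1. The replicate 2 and 3 lists had a peak over the pooled summit, with their own summits 4 and 144 bp away on the mib-1 side, and the replicate 1 list had none. The replicate 3 summit lay in an untranslated exon of mib-1, 38 bp upstream of the gly-9 start. The best replicate 1 peak was instead 912 bp upstream of smc-3 in an intron of gly-9, where the pooled list had a second peak at rank 6482. Just outside the window, 1768 bp from smc-3, the pooled list had a peak at rank 1863, and the replicate 1 peak over it ranked 387, higher than any replicate peak at smc-3 inside the window.

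The scc-3 gene (WBGene00004738, chromosome V, 12763945 to 12767933, plus strand) encodes the subunit that binds the kleisin. Its best peaks ranked 16988, 2311 and 6011 in replicates 1, 2 and 3 (mean 8436.7 ± 7633.2, SD, n = 3). The replicate 2 and 3 summits lay in the 3′ untranslated exon, as did the pooled summit at rank 7249 with a score of 11.9. The nearest start to it, 1461 bp away, was that of srt-43, a serpentine receptor gene. The him-1 gene (WBGene00001860, chromosome I, 4951571 to 4957667, minus strand) encodes the other SMC protein and had no pooled peak. Its best replicate ranks were 25668, 2493 and 11459 (mean 13206.7 ± 11685.9, SD, n = 3), and these summits were spread over 7150 bp. For both genes replicate 2 ranked highest and replicate 1 lowest, and the best peaks of the replicates were not all at 1 site.

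The somatic kleisin gene scc-1 (WBGene00004737, chromosome II, 4698721 to 4700994, plus strand) encodes the kleisin of mitotic cells. Its best peak scored 18.6, 22.9 and 15.9 in replicates 1, 2 and 3, at ranks 93, 93 and 227 (mean 137.7 ± 77.4, SD, n = 3). All 3 ranks were lower on the list than those of scc-2. The optimal peak spanned chromosome II, 4701415 to 4701754, with a score of 53.4, a −log10 q-value of 0.96 and rank 132, and 118 of the 365 nuclear optimal peaks scored higher. The replicate summits, at 4701625, 4701596 and 4701553, were spread over 72 bp.

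This peak lay nearer to the start of unc-85 than to any part of scc-1. The summit at 4701585 lay 591 bp beyond the 3′ end of scc-1 and 2864 bp from its start, but 484 bp upstream of the unc-85 start at 4702069, on the same strand. A second pooled peak stood at 4701826, 243 bp upstream of unc-85, with a score of 28.4 and rank 390. That is just outside the optimal list, whose lowest score was 28.9 at rank 383, the next peak on the pooled list having 28.8. Its −log10 q-value, 1.28, was above that of the higher-scoring neighbour, so the order by score and the order by q-value differ here. The second peak ranked 12536, 11776 and 552 in replicates 1, 2 and 3, high in replicate 3 alone.

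At the start of scc-1 itself the replicates had only low peaks. Replicates 1 and 3 had a summit 246 and 236 bp upstream of scc-1, at ranks 17256 and 6400, in the gap shared with the divergent proteasome subunit gene rpn-5. Replicate 2 had one 26 bp downstream of the start at rank 23714. The pooled list had no peak there. A peak list does not say on which gene a peak acts.

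**Figure D3:**
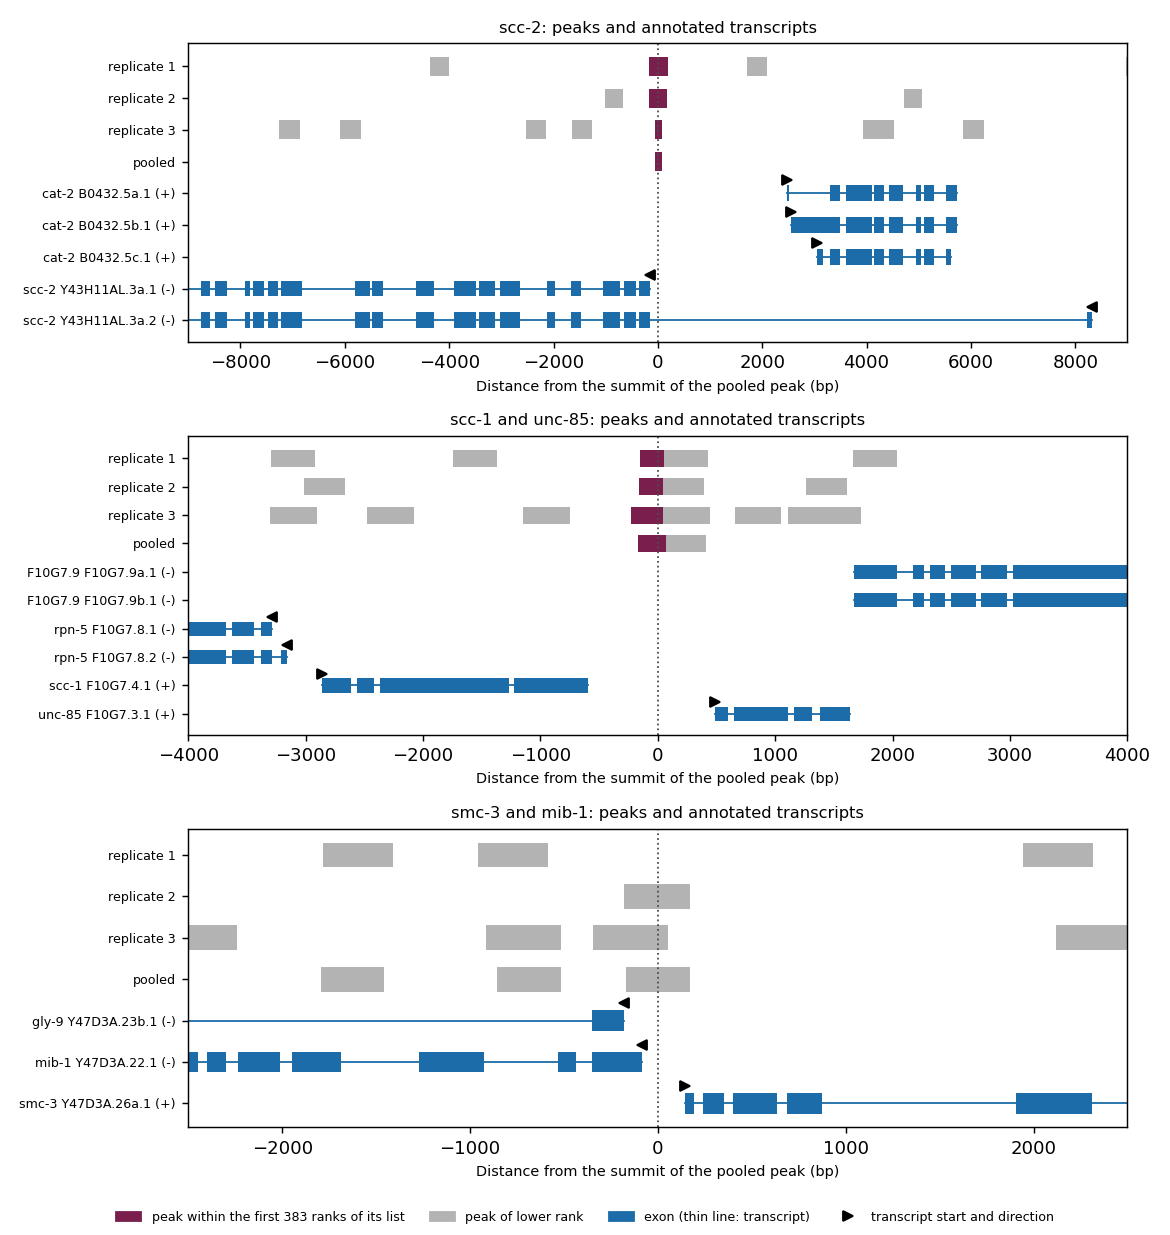
Peaks and annotated transcripts around the pooled summits at scc-2 (top), scc-1 and unc-85 (middle) and smc-3 and mib-1 (bottom), with distance from the summit in bp. Rows give the 3 replicate lists, the pooled list and each transcript, with exons as boxes and starts as arrowheads; dark red marks peaks in the first 383 ranks of their list and grey marks lower peaks. The dark red peaks of all lists coincide 148 bp upstream of a scc-2 start and 484 bp upstream of unc-85, and the smc-3 panel has none.

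The coh-1 gene (WBGene00000591, chromosome X, 7465193 to 7475018, minus strand) encodes a somatic kleisin present also in cells that no longer divide. Its best peaks scored 7.15, 7.56 and 7.44 in replicates 1, 2 and 3, at ranks 1844, 4743 and 1822 (mean 2803.0 ± 1680.1, SD, n = 3). Replicates 1 and 3 ranked it higher than replicate 2, the opposite of smc-3, and the summits were spread over 11005 bp, so they are not 1 site. The best replicate 1 peak, at rank 1844, lay 208 bp beyond the 3′ end of the gene. Of the 4 annotated transcripts, K08A8.3a.1 has the outermost start. Upstream of that start the nearest summits were at 83, 972 and 260 bp in replicates 1, 2 and 3, with ranks 2334, 4743 and 1822. The pooled list had 2 peaks at coh-1, both in introns, at ranks 5061 and 6918 with scores of 13.0 and 12.0. They lay 710 bp upstream of the internal start of K08A8.3d.1 and 814 bp upstream of that of K08A8.3b.1. The pooled list had none at the outermost start.

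None of the 3 meiotic kleisin genes had a peak in all 3 replicate lists, where 50.6% of all protein-coding genes had one. The gene rec-8 (WBGene00004333, chromosome IV, 13349122 to 13353193, minus strand), which encodes the conserved meiotic kleisin, had 4 peaks in replicate 1 with a best rank of 3181, 5 in replicate 3 with a best rank of 6659 and none in replicate 2. The coh-3 gene (WBGene00000592, chromosome V, 14457422 to 14460141, plus strand) had best ranks of 5118 in replicate 1, from a summit 192 bp upstream of the start, and 14154 in replicate 2, and no peak in replicate 3. The coh-4 gene (WBGene00021560, chromosome V, 4169912 to 4175640, minus strand) had a peak in replicate 2 alone, at rank 5662. No meiotic kleisin had a peak among the first 3000 of any replicate list, a count for which the share of all genes was not worked out. The shared subunits also had none there in replicates 1 and 3, whereas all 3 had one in replicate 2. Of these, the smc-3 and him-1 peaks lay outside the genes, 146 and 351 bp away, the him-1 peak in a coding exon of F28B3.6. Per length, rec-8 had 0.494 ± 0.436 replicate peaks per kb, coh-3 0.212 ± 0.212 and coh-4 0.0863 ± 0.149 (SD, n = 3), so rec-8 was not poor in peaks.

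The single pooled peak of this group belonged to coh-4, at rank 8141 of 8636 with a score of 11.6, and its summit lay in a coding exon of the neighbour Y45G5AM.7, 575 bp outside coh-4. The genes coh-3 and coh-4 encode closely related, partly interchangeable kleisins. How reads that match more than 1 place were treated is not stated, so the peaks of these related genes are uncertain.

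Set side by side, the roles did not separate as groups. Each of the loader and somatic kleisin groups joined 1 gene with top-ranked peaks to 1 gene without: scc-2 and mau-2, and scc-1 and coh-1. In the shared subunits the best ranks ran from 4442 to 25668 in replicate 1, from 710 to 2493 in replicate 2 and from 3845 to 11459 in replicate 3. In the meiotic kleisins they ran from 3181 to 5118 in replicate 1 and from 5662 to 14154 in replicate 2. In replicate 3 the 1 gene with a peak had 6659. The groups thus overlapped in replicates 1 and 3 but not in replicate 2, where rec-8 had no peak. The replicate 2 gap rested on peaks outside the genes: those of smc-3, him-1 and coh-4 lay 146, 351 and 566 bp away. With peaks inside the genes only, the replicate 2 best ranks were 2311 for scc-3, 9051 for him-1 and 20492 for smc-3. They were 14154 for coh-3 and 27019 for coh-4, and the groups overlapped. By mean rank over the replicates the 7 genes with a peak in all 3 lists ran scc-2, scc-1, coh-1, smc-3, scc-3, mau-2 and him-1. The replicate ranks of scc-2 and scc-1 did not overlap, and neither did those of scc-1 and coh-1. From coh-1 onward the ranges of genes next to each other in this order overlapped, so the order of such neighbours is within the replicate spread. Genes further apart in it could still separate: coh-1 and smc-3 ranked higher than mau-2 in every replicate, with no overlap. The lead of scc-1 over coh-1 rested on the peak 591 bp beyond the 3′ end of scc-1. With peaks inside the genes only, scc-1 had best ranks of 22994, 23714 and 8376 in replicates 1, 2 and 3. By the same rule coh-1 had 4646, 6132 and 4064, so it ranked higher than scc-1 in every replicate.

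Replicate agreement was higher for optimal peaks than for the other pooled peaks, at these genes as in the whole list. Both optimal peaks at cohesin genes had their summit covered by a peak in all 3 replicate lists, as did 88.5% of the 383 optimal peaks. Of the other 8 pooled peaks at cohesin genes, 2 were covered in all 3 lists, 4 in exactly 2 and 2 in 1 list. For the 8253 other pooled peaks these shares were 17.2%, 50.6% and 30.1%. Since the pooled list contains every replicate, this agreement is not independent of the calls. The optimal peaks were also selected for passing the reproducibility threshold, so their higher agreement is partly given by that choice.

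**Figure D4:**
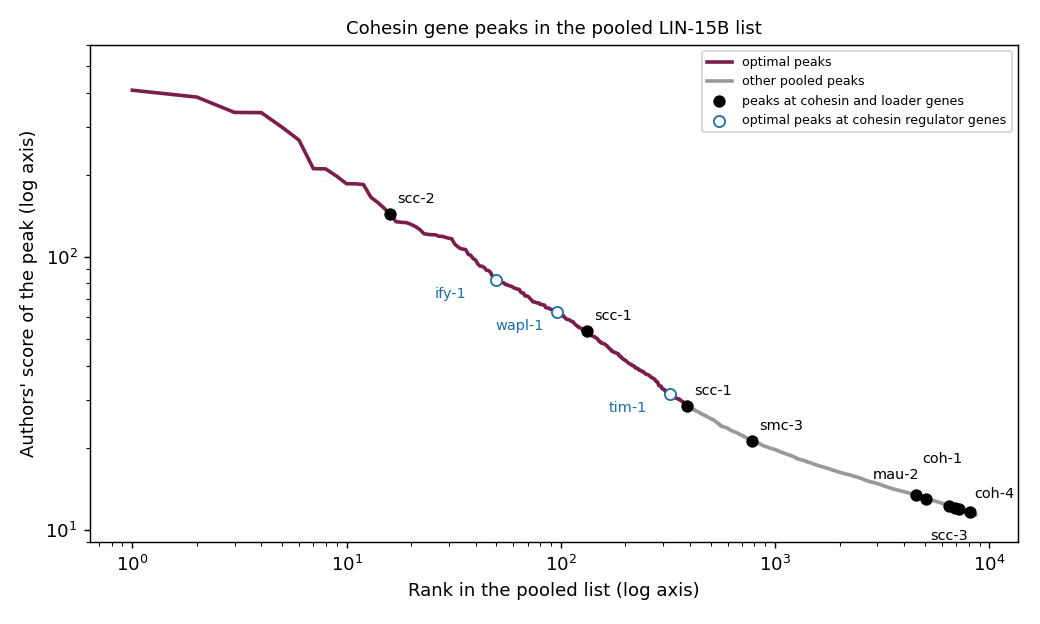
Score of every pooled peak against its rank, both on log axes, with optimal peaks as a dark red line and the other pooled peaks as a grey line. Black points are peaks at cohesin and loader genes and open blue points are optimal peaks at cohesin regulator genes. The scc-2 peak is at rank 16 and the scc-1 peaks at ranks 132 and 390, smc-3 follows at 780, and the remaining cohesin gene peaks lie at ranks 4538 to 8141.

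Genes that control cohesin had optimal peaks at 3 of 9, which were ify-1, wapl-1 and tim-1, set beside the same 3.13% of all genes; this list too was drawn up with earlier results known. The ify-1 gene encodes securin, the inhibitor of the protease that cuts the kleisin. Its peak ranked 70, 104 and 52 in replicates 1, 2 and 3, with summits within 1 bp, and 50 in the optimal list with a score of 82.5. It was the 1 regulator gene with a top-ranked peak in all 3 replicates. The summit lay 164 bp upstream of ify-1 and 273 bp upstream of the divergent ribosomal protein gene rpl-22.

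The wapl-1 gene encodes the factor that releases cohesin from chromatin. Its peak ranked 127, 45 and 697 in replicates 1, 2 and 3, so that replicate 3 fell outside the top-ranked peaks, and 96 in the optimal list with a score of 62.7. The summit lay 200 bp upstream of wapl-1 and 276 bp upstream of htz-1, which encodes the histone variant H2A.Z. The tim-1 gene encodes a Timeless relative needed for cohesion. Its peak ranked 490, 184 and 656 in the replicates and 322 in the optimal list with a score of 31.5. The summit was 333 bp upstream of tim-1, but 163 bp upstream of Y75B8A.23 and within the annotated spliced leader RNA gene sls-2.8, so several genes share it.

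Pooled peaks were present at 8 of the 9 regulators, against 37.5% of all protein-coding genes. The remaining 6 regulators, evl-14 (the PDS5 gene), eco-1, sep-1, sgo-1, lab-1 and air-2, had no optimal peak, and 5 of them had a pooled peak. The 12 genes of condensin, the dosage compensation complex and the SMC-5/6 complex had no optimal peak, against 3.13% of all protein-coding genes, and 7 had a pooled peak, against 37.5%. The best of these was at kle-2, a condensin subunit gene, at rank 451 with a score of 26.7. The replicate peaks over that summit ranked 13680, 20886 and 204 in replicates 1, 2 and 3, so it was top-ranked in replicate 3 alone. Among genes with a pooled peak the median best rank was 4538 for the 7 cohesin and loader genes, 4227.5 for the 8 regulators, 4865 for the 7 genes of the other complexes and 3259 for the 7491 protein-coding genes. By this measure none of the 3 lists stood at higher ranks than protein-coding genes in general.

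**Figure D5:**
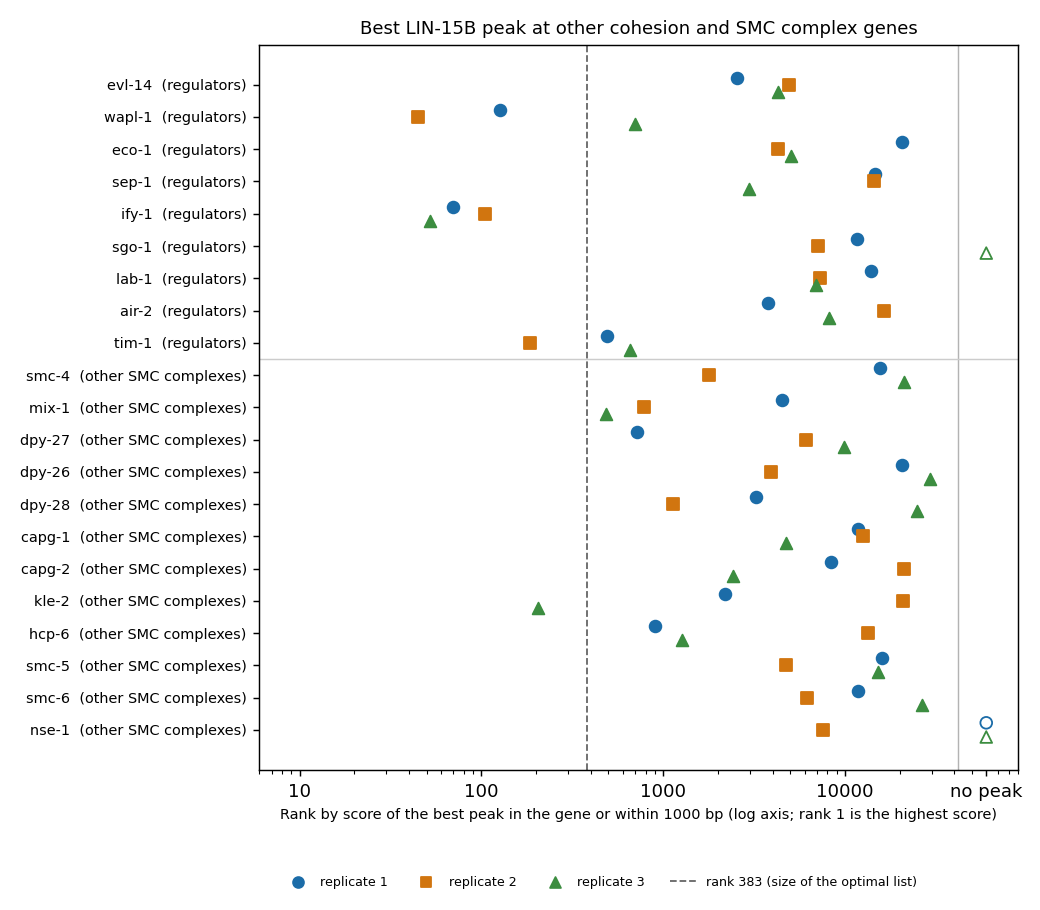
Rank of the best peak in the 3 replicate lists at 9 genes that control cohesin (upper block) and 12 genes of other SMC complexes (lower block), on a log axis; symbols and the dashed line at rank 383 are as in the plot of the cohesin genes, and open symbols mark genes with no peak in that list. All 3 replicates of ify-1 (52 to 104) lie left of the line, as do replicates 1 and 2 of wapl-1, replicate 2 of tim-1 and replicate 3 of kle-2.

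Of the 10 cohesin and loader genes, scc-2 and scc-1 had an optimal peak and a top-ranked peak in all 3 replicates. Only the scc-2 summit lay in the promoter window of one of its gene's own annotated starts. Taken singly, these traits were present at 3.13%, 1.23% and 1.98% of all protein-coding genes, and the share with all of them was not worked out. The ce10 optimal list held a peak matched to each of the optimal peaks at scc-2 and scc-1. Since chromosome, width and score were the matching keys, the equal scores are given by the match, and the ranks there were also 16 and 132. The neighbouring genes cat-2, rpn-5, gly-9, T28B8.1, F28B3.6, rpl-22, htz-1, Y75B8A.23 and sls-2.8 were named after their values were seen.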

How the data were processed

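LIN-15B ChIP-seq peak lists from 4 samples in 1 group were used, with the 2 technical libraries of replicate 3 counted as 1 replicate. Per the deposited descriptions, peaks were called against a control alignment for each replicate and for the pool, and the optimal list holds those that passed a reproducibility test. Which aligner, caller and cutoff were used is not given in the sources used here. The score of each peak is the signal value deposited by the authors. The −log10 q-value is also as deposited by the authors, and it was not used for ranking. The files give no read counts, so depth and its precision are unknown, and 0 columns of per-sample values were left unused. The labels call the replicates biological without describing separate cultures, so the SD over the 3 lists may be partly technical.

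Summits were set against Ensembl release 115 (WBcel235, the coordinates of ce11), and ranks are by score within a list. Sequence came from the same assembly as provided by RefSeq. The assignment of peaks to genes was tested on simulated data and recovered all planted peaks. No significance test was run: the members and lists were chosen with earlier results of these data known. Named genes are the 10 members, the genes of the other lists with an optimal peak or else the best pooled rank, the protein-coding gene nearest each member's best pooled peak, and the 3 genes closest to scc-2 in replicate rank. Alternatives changed the window, the assignment, the part of the list used and the replicates. Python 3.11.15, numpy 2.4.6, pandas 2.3.3 and matplotlib 3.10.9 were used.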

Additional observations from a re-analysis of the deposited data

How the results depend on the processing

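The optimal peak of scc-2 was counted under every window and assignment tried, whereas that of scc-1 depended on them. With windows of 500 or 0 bp, with each peak given to its nearest gene only, or with the promoter window, 1 of the 10 genes (scc-2) had an optimal peak in place of 2. Genes with a top-ranked peak in all 3 replicates likewise numbered 1 with windows of 500 or 0 bp. Genes with a pooled peak numbered 4 with no window or nearest genes only and 3 in the upper 50 percent by score, in place of 7. Genes with a peak in all 3 replicate lists numbered 4 in the upper 50 percent. In each case the cause is the narrower window, the single assignment or the shorter list. With each replicate left out in turn, genes with a peak in every remaining list numbered 7 to 8. The optimal list was not called again without a replicate, and since scc-2 and scc-1 are top-ranked in all 3 replicates their count of 2 could not fall. The mean best rank fell to 4161.0 for scc-3 and 6976.0 for him-1 without replicate 1, and to 1833.0 for coh-1 without replicate 2, each by over 1.5 times. The ce10 list and the promoter window were chosen after seeing the data. No paired analysis was possible because there is 1 group. The lists give no read depth, so low-ranked peaks cannot be graded by it, and a gene with no listed peak is not shown to be unbound.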
